A study of Mus musculus with 16 samples.

Results

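The cytosolic ribosomal protein genes were examined on Illumina MouseWG-6 v2 arrays of organotypic slices of the suprachiasmatic nucleus (SCN), the circadian pacemaker of the hypothalamus. A gene was a member if its symbol was Rpl or Rps followed by a digit, or Rpsa, Rplp0, Rplp1 or Rplp2. Rps6k kinases, pseudogenes and l-suffixed paralogues other than Rpl22l1 were left out, as were Rps19bp1 and Rps23rg1, whose symbols fit the letters but which encode no ribosomal protein. This gave 57 of the 10620 genes with a named probe, each represented by its probe of highest mean value. Of these, 33 encode proteins of the large (60S) subunit, namely Rpl3, Rpl4, Rpl7a, Rpl9, Rpl10a, Rpl12, Rpl13a, Rpl14, Rpl17, Rpl19, Rpl21, Rpl22, Rpl22l1, Rpl23, Rpl24, Rpl26, Rpl27, Rpl27a, Rpl28, Rpl29, Rpl30, Rpl31, Rpl32, Rpl34, Rpl35, Rpl36a, Rpl37, Rpl38, Rpl39, Rpl41, Rplp0, Rplp1 and Rplp2. The other 24 encode proteins of the small (40S) subunit, namely Rps2, Rps3, Rps3a1, Rps4x, Rps6, Rps7, Rps9, Rps10, Rps12, Rps13, Rps14, Rps15, Rps15a, Rps16, Rps18, Rps19, Rps20, Rps21, Rps23, Rps24, Rps25, Rps26, Rps29 and Rpsa. A further 23 ribosomal protein genes, Rps27a among them, had no named probe and were not analysed here.

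All slices came from C57BL/6J pups aged P8 to P11. The 16 arrays fell into 4 groups of 4. CT10 slices were untreated and harvested at circadian time 10 (replicates 1, 3, 4 and 5). CT12 Veh slices received vehicle, the air medium itself, at CT10 and were harvested 2 h later. CT12 VIP slices received vasoactive intestinal peptide (VIP, 1 µM by the sample labels, a higher dose by the paper) at CT10 and were harvested 2 h later, and CT16 VIP slices received the same and were harvested 6 h later. The time of the 6 h harvest follows the sample labels and the paper, whereas the series description gives CT12. CT12 was set by the peak of the PER2::LUC reporter. A vehicle group at CT16 was not analysed here, so circadian time and time after VIP cannot be told apart in CT16 VIP. It is not stated if slices in a group were from different animals, so the p-values measure the spread between these slices.

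Ribosomal proteins and ribosomal RNA together form the subunits that translate mRNA, and the proteins are made in near-equal numbers for assembly in the nucleolus. Their mRNAs are among the most abundant of any cell and typically begin with a C followed by a run of pyrimidines, the 5′ terminal oligopyrimidine (5′TOP) motif, through which the kinase complex mTORC1 controls their translation. Much of their regulation is thus at the level of translation, which arrays of total RNA do not measure. VIP acts on SCN neurons through the receptor VPAC2 and cyclic AMP, and in the SCN light is known to activate mTORC1 and the phosphorylation of ribosomal protein S6.

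RefSeq promoter windows (GRCm38.p6, 250 bases before and 50 after a transcription start) were found for 43 of the 57 members, with 51 windows because 7 members have more than 1 annotated start. The sequences below belong to 9 genes named further below, each with a single annotated start. They are shown because the pyrimidine run is the feature the 5′TOP motif is built on. Each covers the 15 bases before and the first 15 bases from the annotated start, 5′ to 3′ on the gene's strand, and the capitals mark the longest unbroken run of C or T. A marked run can lie wholly before the start, as in Rps25 and Rplp0, so it is not by itself a 5′TOP motif.
Rpl27a, chr7:109519180-109519209, plus strand: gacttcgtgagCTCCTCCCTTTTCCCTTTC
Rps6, chr4:86857353-86857382, minus strand: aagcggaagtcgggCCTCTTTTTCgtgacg
Rplp2, chr7:141447636-141447665, plus strand: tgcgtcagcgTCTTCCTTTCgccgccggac
Rpl13a, chr7:45128731-45128760, minus strand: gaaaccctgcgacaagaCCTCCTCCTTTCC
Rpl14, chr9:120571502-120571531, plus strand: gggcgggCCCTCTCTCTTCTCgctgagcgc
Rpl22l1, chr3:28805493-28805522, plus strand: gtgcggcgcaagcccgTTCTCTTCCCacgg
Rps25, chr9:44407699-44407728, plus strand: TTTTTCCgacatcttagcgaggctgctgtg
Rplp0, chr5:115559452-115559481, plus strand: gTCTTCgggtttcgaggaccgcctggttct
Rpsa, chr9:120127751-120127780, plus strand: gtgggttatttaaggacgtcaTTTCCggcc

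The run was 19 bases long in Rpl27a and 10 in Rps6, Rplp2 and Rpl22l1, and it was 5 in Rplp0 and Rpsa. Across the members, 20 of 51 windows (39.2%) held a run of 8 or more, against 3943 of 32851 windows of all genes (12%). The first base was a C in 27.5% of member windows and in 16.3% of all windows. Of motifs searched on both strands over the 300 bases, the cyclic AMP response element TGACGTCA was in 3 of 51 member windows (5.88%, those of Rpl26, Rpl27a and Rps9) and in 1.79% of all windows. The ETS motif CCGGAAG was in 41.2% of member windows and in 8.86% of all windows, and the TATA box TATAAA was in 11.8% of member windows and in 13.6% of all windows. The runs were counted anywhere within 15 bases of the start, also where they lie wholly before it. These matches describe the letters of the annotated windows, which need not be the starts used in the SCN.

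**Figure D1:**
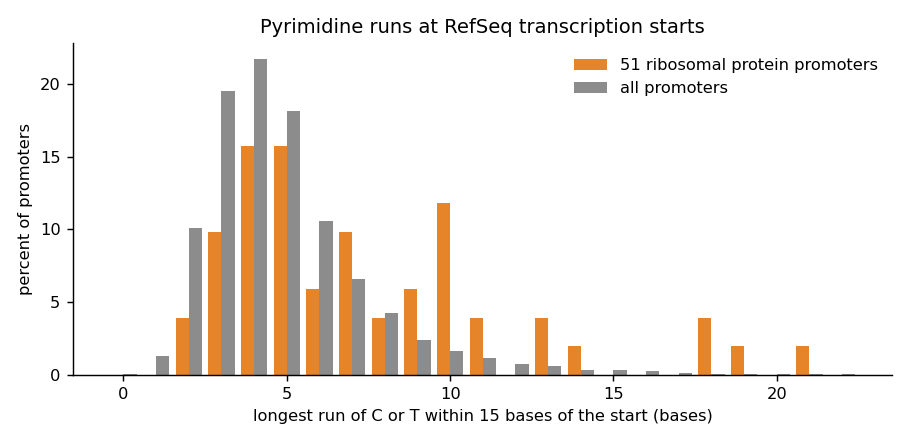
Length in bases of the longest run of C or T within 15 bases of the annotated start (horizontal) against the percentage of promoter windows (vertical), for 51 windows of ribosomal protein genes and all 32851 windows. Runs of 8 or more were in 39.2% of the member windows and in 12% of all windows.

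An array detected between 8019 and 16923 probes at a detection p of 0.01 or less, and CT16 VIP 3, CT16 VIP 4, CT12 VIP 1 and CT12 Veh 1 detected fewer than 10000. Median raw signals ran between 75.7 and 153.5 across the arrays. Of the 57 members, 48 were detected on all 16 arrays. The other 9 (Rpl4, Rpl14, Rpl17, Rpl21, Rpl22, Rplp0, Rps18, Rps20 and Rpsa) were detected on some arrays only, Rpl14 on 1 and Rpsa on 2, all of these CT16 VIP arrays. In these bulk slices fewer cells of a type and less RNA per cell cannot be told apart.

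On the normalised scale of the deposited values, which is close to log2, the members had a median within-group SD of 0.13, against 0.11 for all probes. The means of the 4 groups spanned 0.17 in the median member, and at most 0.38 (Rps12). Rpl23 gave the brightest or second brightest signal on every array, ranking 1st on 6 and 2nd on 10, so that quantile normalisation left it only 2 possible values. Its raw signal meanwhile ranged between 8474 and 17774, and no difference of its normalised value can be read.

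The first question was whether 2 h of VIP changes these transcripts relative to vehicle. It was asked on the authors' pairwise normalised values with limma, adjusting over all probes tested. None of the 55 members tested passed an adjusted p of 0.05 (limma, Benjamini-Hochberg), whereas 738 of 17605 probes did (4.19%). At an unadjusted p under 0.05 there were 3 members, all of them lower in CT12 VIP (Rpl27a, Rps12 and Rps21), which is 5.45% of the members against 15.2% of all probes. The median difference was -0.029 over the members and -0.0087 over all probes, and 20 of 55 members lay above 0. The 95% intervals of all 55 members lay within 0.5 of 0 on this scale, and those of 51 within 0.3. The differences of single members ran between -0.24 (Rps12) and 0.16 (Rps13), with a median of -0.027 in the large subunit and -0.06 in the small subunit. The groups of arrays did not overlap for 4 members (Rpl27a, Rps12, Rps21 and Rps20), and they did not overlap for 9.65% of all probes.

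**Figure D2:**
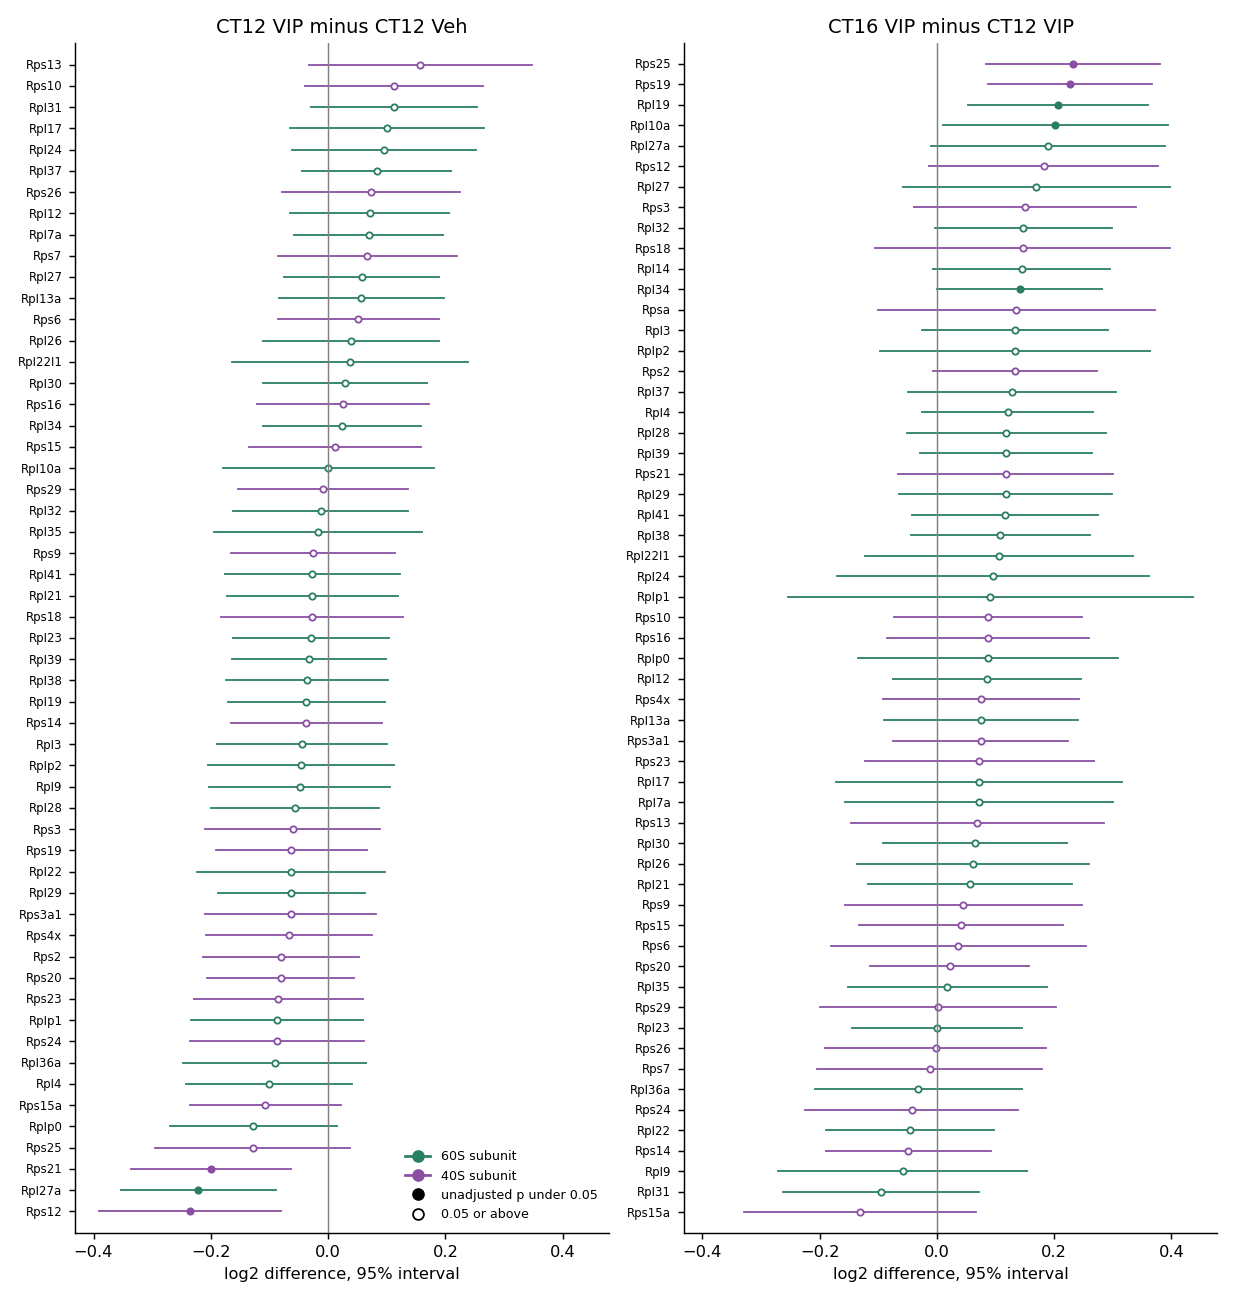
Difference on the log2 scale with its 95% interval (horizontal) for each ribosomal protein gene (vertical), CT12 VIP minus CT12 Veh on the left and CT16 VIP minus CT12 VIP on the right, by subunit, filled where the unadjusted p is under 0.05. Filled points number 3, all below 0, on the left and 5, all above 0, on the right.

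Rpl27a, a protein of the large subunit, had the lowest adjusted p. It read 10.94, 10.89, 10.98 and 10.93 on the CT12 VIP arrays and 11.14, 11.15, 11.07 and 11.26 on the CT12 Veh arrays. The groups did not overlap, and the difference was -0.22 ± 0.063 (SE, n = 4 each, limma adjusted p = 0.0535). It passed the threshold on the values normalised over all arrays (adjusted p = 0.0469), with the stricter detection filter (0.0479) and with each array's detected probe number added to the model (0.0428), and its adjusted p lay between 0.0428 and 0.813 over the alternatives. The other 3 probes of Rpl27a differed by -0.02, 0.071 and 0.041, and the mean of its probes differed by -0.032.

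Rps12, a protein of the beak of the small subunit, read 10.10, 10.07, 10.24 and 10.14 in CT12 VIP and 10.29, 10.28, 10.34 and 10.58 in CT12 Veh. The 4 VIP arrays lay below all vehicle arrays, of which replicate 4 stood highest. The difference was -0.24 ± 0.074 (SE, n = 4 each, limma adjusted p = 0.088), and its second probe differed by -0.027. With the detected probe number in the model the adjusted p of Rps12 was 0.0399, the lowest over its alternatives, where the highest was 0.454.

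Rps21, whose yeast counterpart is needed to mature the small subunit rRNA, read 10.08, 10.01, 10.14 and 10.08 in CT12 VIP and 10.21, 10.20, 10.31 and 10.39 in CT12 Veh. The groups again did not overlap. The difference was -0.20 ± 0.065 (SE, n = 4 each, limma adjusted p = 0.102).

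The next question was what followed between 2 h and 6 h after VIP. None of the 57 members passed an adjusted p of 0.05 in CT16 VIP against CT12 VIP (limma, Benjamini-Hochberg, pairwise values), and 342 of 19110 probes did (1.79%). At an unadjusted p under 0.05 there were 5 members, all higher in CT16 VIP (Rps19, Rps25, Rpl19, Rpl10a and Rpl34), or 8.77% of members against 12.4% of all probes. The members leaned upwards together: 47 of 57 lay above 0 (82.5%, against 50.6% of all probes), with a median of 0.088 against 0.0016. The median was 0.11 in the large subunit and 0.074 in the small subunit, and single members ran between -0.13 (Rps15a) and 0.23 (Rps25). This lean held when each array was left out in turn (medians between 0.057 and 0.11). With the detected probe number in the model 44 of 57 lay above 0 (median 0.078). The lean was weaker in other settings of arrays and scaling. Leaving out the arrays that detected fewer than 10000 probes kept only CT16 VIP 1 and 2 against CT12 VIP 2, 3 and 4. In that setting 34 of 57 lay above 0 and the median was 0.041. With values centred on the array median in place of quantile normalisation the numbers were 31 of 57 and 0.02. The groups of arrays did not overlap for 5 members (Rps19, Rps25, Rpl19, Rpl34 and Rps2), and they did not overlap for 7.82% of all probes.

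**Figure D3:**
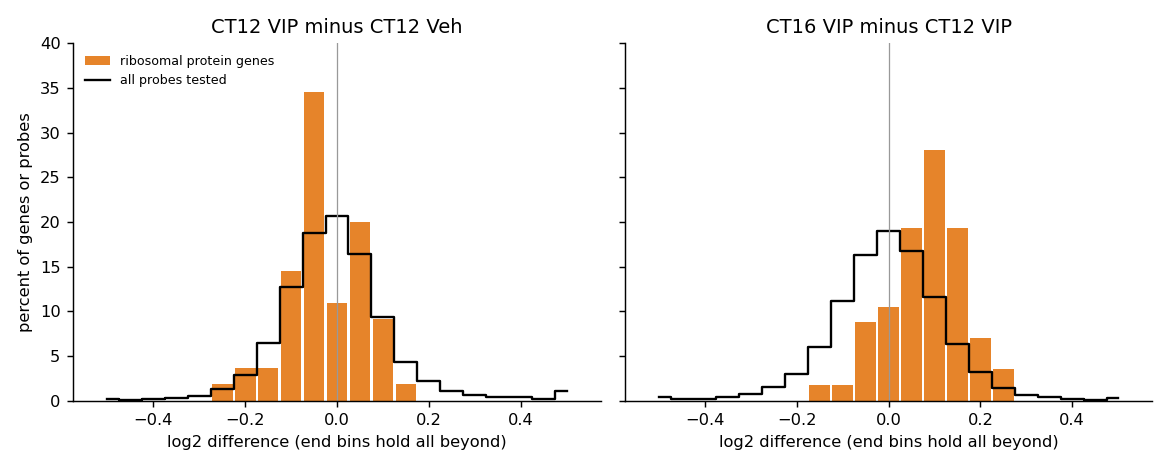
Difference on the log2 scale (horizontal, bins of 0.05) against the percentage of ribosomal protein genes (bars) or of all probes tested (line), CT12 VIP minus CT12 Veh on the left and CT16 VIP minus CT12 VIP on the right. On the right the bars sit to the right of the line, with 47 of 57 genes above 0.

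Rps19, which is needed to mature the small subunit and is mutated in Diamond-Blackfan anaemia, read 9.99, 9.92, 9.93 and 10.06 in CT16 VIP and 9.73, 9.68, 9.78 and 9.79 in CT12 VIP. All CT16 arrays lay above all CT12 arrays. The difference was 0.23 ± 0.066 (SE, n = 4 each, limma adjusted p = 0.124).

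Rps25, a small subunit protein used in initiation at internal ribosome entry sites, read 8.87, 8.89, 9.01 and 8.83 in CT16 VIP and 8.68, 8.65, 8.58 and 8.76 in CT12 VIP. The groups were apart, by 0.23 ± 0.069 (SE, n = 4 each, limma adjusted p = 0.137). Rpl19, which contributes to a bridge between the subunits, read 9.97, 9.81, 9.82 and 9.75 in CT16 VIP and 9.59, 9.57, 9.74 and 9.62 in CT12 VIP. Its groups were narrowly apart, and the difference was 0.21 ± 0.071 (SE, n = 4 each, limma adjusted p = 0.22).

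Rpl10a, the protein of the stalk beside the exit site for transfer RNA, read 9.0, 9.01, 9.10 and 9.22 in CT16 VIP and 8.77, 8.86, 8.76 and 9.14 in CT12 VIP. CT12 VIP 4 lay within the range of the CT16 group. The difference was 0.20 ± 0.090 (SE, n = 4 each, limma adjusted p = 0.374), and it was 0.09 without the arrays under 10000 detected probes.

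The 2 comparisons share the CT12 VIP arrays, so a low value there counts in both. The 3 genes that were lowest at 2 h had differences of 0.19 (Rpl27a), 0.18 (Rps12) and 0.12 (Rps21) in CT16 VIP against CT12 VIP, with adjusted p of 0.431, 0.441 and 0.63 (limma). Rpl27a read 11.33 and 11.32 on CT16 VIP 1 and 2 and 11 and 10.91 on CT16 VIP 3 and 4, so that only CT16 VIP 4 lay within the range of the CT12 VIP arrays. Without the arrays under 10000 detected probes it was the only member to pass in this comparison, with an adjusted p of 0.0432 (limma). That setting kept CT16 VIP 1 and 2, where Rpl27a read highest, and left out CT16 VIP 3 and 4.

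**Figure D4:**
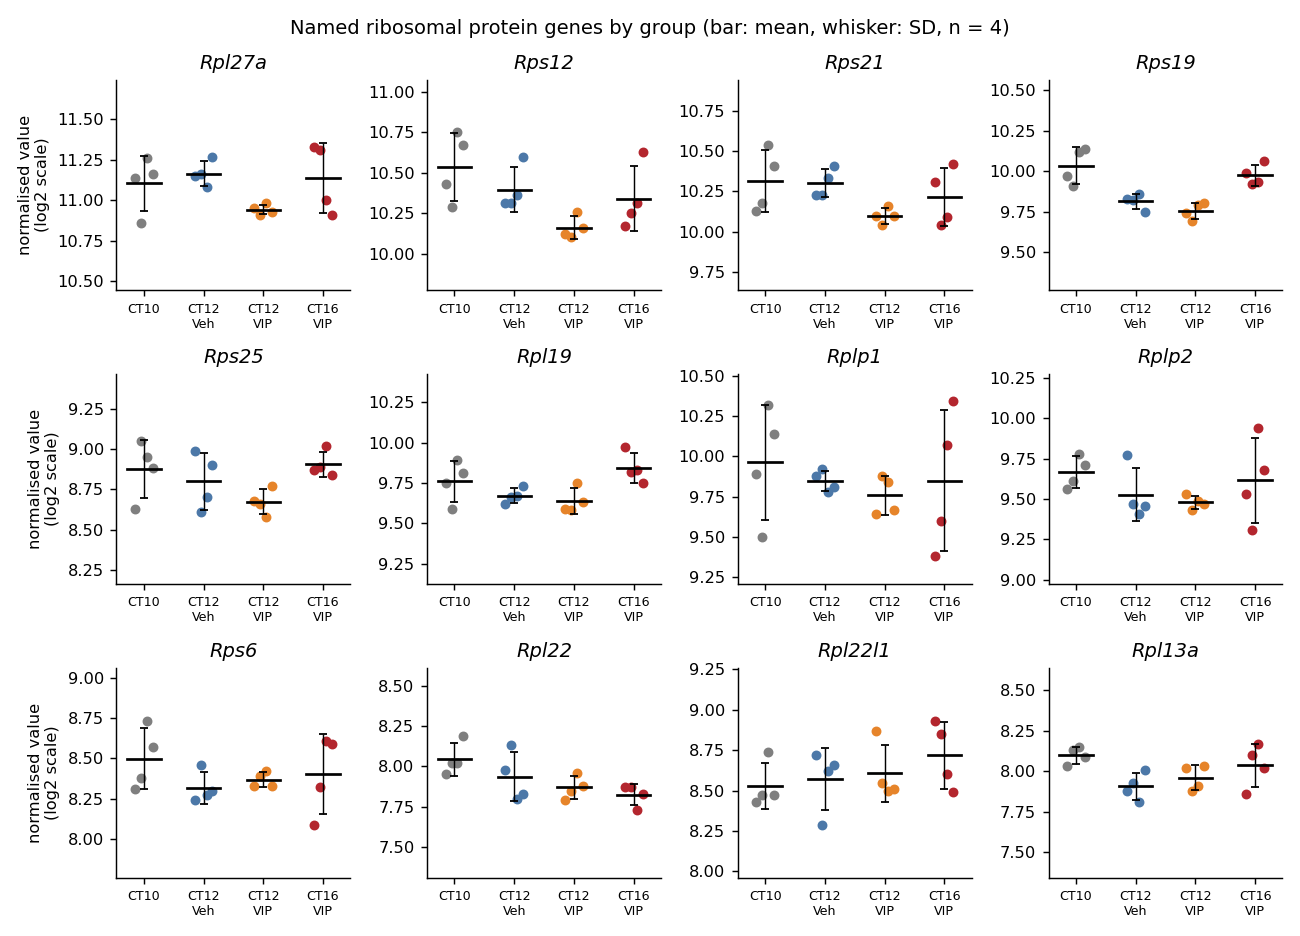
Normalised value on the log2 scale (vertical) on each array, by group (horizontal), for 12 ribosomal protein genes, each panel spanning the same height, with the mean as a bar and the SD as a whisker (n = 4). The genes with their lowest group mean in CT12 VIP are Rpl27a, Rps12, Rps21, Rps19, Rps25, Rpl19, Rplp1 and Rplp2. Rplp1 and Rps6 are among the genes that spread most in CT16 VIP.

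The stalk proteins and Rps6 were followed whatever their values. Rplp1, an acidic stalk protein that recruits elongation factors, read 9.37, 9.60, 10.07 and 10.34 in CT16 VIP and 9.64, 9.88, 9.83 and 9.66 in CT12 VIP. The CT16 group enclosed the CT12 group, with replicates 3 and 4 high and 1 and 2 low, and the difference was 0.091 ± 0.16 (SE, n = 4 each, limma adjusted p = 0.872). It was -0.31 without the arrays under 10000 detected probes, where only CT16 VIP 1 and 2 stood for CT16 VIP. Its partner Rplp2 read 9.52, 9.30, 9.94 and 9.67 in CT16 VIP and 9.53, 9.43, 9.49 and 9.47 in CT12 VIP, and the groups overlapped.

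Rps6, the substrate of S6 kinase downstream of mTORC1, read 8.09, 8.31, 8.61 and 8.59 in CT16 VIP and 8.33, 8.39, 8.41 and 8.33 in CT12 VIP. The CT16 arrays split in the same way as for Rplp1. The difference was 0.037 ± 0.10 (SE, n = 4 each, limma adjusted p = 0.927). It was -0.17 without the arrays under 10000 detected probes, again with only CT16 VIP 1 and 2 left in CT16 VIP. After 2 h of VIP, Rps6 read 8.29, 8.35, 8.38 and 8.29 in CT12 VIP and 8.20, 8.42, 8.23 and 8.26 in CT12 Veh, which overlapped, and it differed by 0.051 (limma adjusted p = 0.787).

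At 2 h the stalk genes Rplp1, Rplp2 and Rplp0 differed by -0.087, -0.047 and -0.13 between CT12 VIP and CT12 Veh, with adjusted p of 0.631, 0.837 and 0.408 (limma). Rplp0, the base of the stalk, was detected on only 1 CT12 VIP array and 3 CT12 Veh arrays. Rpsa, the laminin receptor of the small subunit, was not above background on any array outside CT16 VIP, so no fold is given.

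Rpl22 and Rpl22l1 are paralogues, and the protein of Rpl22 is known to repress the mRNA of Rpl22l1. On background-corrected values, Rpl22 read 6.79, 6.80, 6.36 and 6.68 in CT16 VIP and 7.00, 7.18, 7.18 and 7.56 in CT10. All CT16 VIP arrays lay below all CT10 arrays, although Rpl22 was detected on 2 of the 4 CT16 VIP arrays and on all 4 of CT10, and the difference was -0.57 ± 0.19 (SE, n = 4 each, limma adjusted p = 0.17). Rpl22l1 read 8.79, 8.67, 8.29 and 8.11 in CT16 VIP and 8.0, 8.07, 8.51 and 8.08 in CT10. Its groups overlapped, and the difference was 0.30 ± 0.21 (SE, n = 4 each, limma adjusted p = 0.581). Against vehicle at 2 h, on the scale of the pairwise values, the pair differed by -0.063 (Rpl22) and 0.037 (Rpl22l1), with adjusted p of 0.777 and 0.91 (limma). On background-corrected values the same differences were -0.14 and 0.062, with adjusted p of 0.802 and 0.927 (limma).

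The remaining 4 comparisons used background-corrected (neqc) log2 values computed from the raw signals. No member passed an adjusted p of 0.05 in any of them (limma, Benjamini-Hochberg). Between CT12 Veh and CT10 none of 54 members passed and 0% of 16847 probes did, and 2 members against 6.71% of probes had an unadjusted p under 0.05 (Rpl13a, lower in CT12 Veh, and Rpl4, higher but detected on only 2 CT12 Veh arrays and 1 CT10 array). Between CT12 VIP and CT10 none of 55 passed against 2.57% of probes, and 4 members were lower at an unadjusted p under 0.05 (Rps12, Rps19, Rpl22 and Rpl13a) against 13.6% of probes. Between CT16 VIP and CT12 Veh none of 57 passed against 2.21% of probes, and 2 members were higher at an unadjusted p under 0.05 (Rps10 and Rpl14) against 13.9% of probes. Between CT16 VIP and CT10 none of 57 passed against 2.37% of probes, and 2 members against 14% of probes had an unadjusted p under 0.05 (Rpl22, lower in CT16 VIP, and Rpl4, higher but detected on only 2 CT16 VIP arrays and 1 CT10 array). These intervals were wider, on a scale other than that of the pairwise values: 33 of 54, 33 of 55, 25 of 57 and 25 of 57 members lay within 0.5 of 0. In CT12 VIP against CT12 Veh, Rplp0 differed by -0.13 on the pairwise values and by -0.40 on background-corrected values, and Rpl27a by -0.22 on both. Interval widths are thus not comparable between these scales.

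Rpl13a, which in human monocytes also silences inflammatory mRNAs, read 6.84, 6.97, 6.65 and 7.18 in CT12 Veh and 7.24, 7.45, 7.50 and 7.36 in CT10. The groups were apart, by -0.48 ± 0.15 (SE, n = 4 each, limma adjusted p = 0.696). Rps12 read 10.23, 10.21, 10.39 and 10.27 in CT12 VIP and 10.58, 10.43, 10.90 and 10.82 in CT10, again apart, and differed by -0.40 ± 0.15 (SE, n = 4 each, limma adjusted p = 0.228). On the values normalised over all arrays, Rps12 and Rps19 passed in this comparison, with an adjusted p of 0.0353 for Rps12. Rpl14 was above background on 1 CT16 VIP array only, so its difference is not given as a fold.

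In both comparisons with CT10 at 2 h most members were lower, 41 of 54 in CT12 Veh against CT10 (median -0.12) and 46 of 55 in CT12 VIP against CT10 (median -0.12), where the medians of all probes were 0.00030 and -0.023. Both comparisons share the CT10 arrays. The CT10 arrays differed among themselves. Taking each gene's value minus its mean over the 16 arrays, the median member stood at 0.16 on CT10 4 and 0.12 on CT10 5, but at -0.014 on CT10 1 and -0.047 on CT10 3. Within CT10, 51 of 57 members were above their group mean on replicate 4, 45 on replicate 5, 12 on replicate 1 and 11 on replicate 3. Without CT10 4 the medians were -0.072 for CT12 Veh and -0.077 for CT12 VIP. Without CT10 3 they were -0.17 and -0.18. In CT16 VIP, 42 of 57 members lay above 0 against CT12 Veh (median 0.091, all probes -0.024), but 26 of 57 with values centred on the array median (median -0.014). Against CT10, 24 of 57 members lay above 0 (median -0.042), but without CT10 4 it was 31 of 57 (median 0.027) and without CT16 VIP 1 it was 29 of 57 (median 0.0039). Without CT10 3 it was 18 of 57 (median -0.079). Without the arrays under 10000 detected probes it was 18 of 57 (median -0.097).

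**Figure D5:**
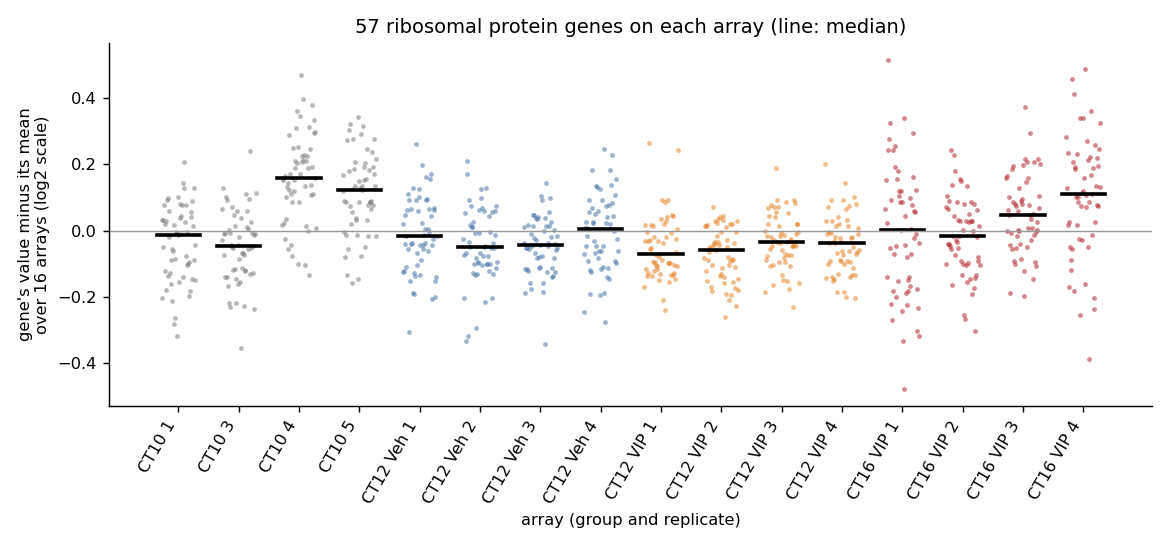
Value of each of the 57 ribosomal protein genes minus its mean over the 16 arrays, on the log2 scale (vertical), by array (horizontal), with the median as a line. The medians are highest on CT10 4 (0.16), CT10 5 (0.12) and CT16 VIP 4 (0.11), and all CT12 VIP arrays lie below 0.

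The CT12 VIP arrays stood between -0.071 and -0.033, the CT12 Veh arrays between -0.05 and 0.005, and the CT16 VIP arrays between -0.018 and 0.11. Probes of the same range of brightness (2973 probes between the lower and upper quartile of the members) stayed between -0.021 and 0.023 on all arrays. CT10 4, CT16 VIP 3 and CT16 VIP 4 also had the highest median raw signals of the 16 arrays (139.2, 149.7 and 153.5), and CT16 VIP 3 and 4 were among the arrays with fewest detected probes (9226 and 8019). CT12 VIP 1, with the next highest raw median (129.5) and 8982 detected probes, stood lowest for the members (-0.071). Their part in the result was not tested.

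The members varied together from slice to slice. With group means removed, the mean correlation between pairs of members detected on all 16 arrays was 0.233 (48 genes), against 0.00128 over all such probes (6589) and 0.153 among mitochondrial ribosomal protein genes (33 genes). It was 0.277 within the small subunit (21 genes) and 0.189 within the large subunit (27 genes). It was 0.036 for ribosome biogenesis factors, 0.035 for other 5′TOP genes and 0.013 for initiation factors. The pairs share arrays and normalisation, so these are descriptions. Quantile normalisation gives all arrays nearly the same distribution of values, which by itself keeps the mean correlation over all probes small. The value over all probes is thus no independent baseline. Of the 48 members, 44 correlated positively with the mean of the others, Rps12 (0.867), Rpl39 (0.812) and Rpl27 (0.812) most closely. The exceptions were Rps23 (-0.192), Rpl3 (-0.215), Rps15a (-0.452) and Rpl23 (-0.545), the last with its value set by rank. Rpl27a stood at 0.0968.

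Several probes of a gene gave a further reading of some members. After 2 h of VIP, 5 of the 12 members with more than 1 probe tested had probes on both sides of 0. The values were -0.027 and 0.0077 for Rpl21, the second probe being detected on no CT12 VIP array. Rpl30 gave 0.029 and -0.068, and Rps9 gave -0.026 and 0.099. The probes of Rpl23 ran between -0.11 and 0.068. In these 4 genes the SE of a probe lay between 0.063 and 0.090, so the signs carry little. Rpl27a was the other gene. In CT16 VIP against CT12 VIP the probes of Rpl21, Rpl27a, Rpl31, Rps3 and Rps24 lay on both sides of 0, and the first probe of Rpl23 was at 0. No second probe passed in either comparison. The lowest adjusted p of these was 0.0812, for the second probe of Rps24 in CT16 VIP against CT12 VIP, which differed by 0.25 where the first differed by -0.043. That second probe was detected on 3 CT16 VIP arrays and 2 CT12 VIP arrays.

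Other genes of the translation machinery were taken from gene lists, to be read against all probes at 2 h of VIP, of which 4.19% passed (480 higher and 258 lower of 17605) and 46.3% lay above 0. After 2 h of VIP none of 27 initiation factors, 53 ribosome biogenesis factors or 18 genes of RNA polymerases I and III passed (limma), with medians of -0.035, -0.067 and -0.052 and 8, 16 and 2 members above 0. Among 70 mitochondrial ribosomal protein genes 1 fell (Mrps34, by 0.25) and 15 lay above 0. Of 21 further 5′TOP genes, 2 rose in CT12 VIP: Impdh2, an enzyme of guanine nucleotide synthesis, by 0.48 (adjusted p = 0.000765), and Vim, the filament protein vimentin, by 0.30 (adjusted p = 0.0347). On the mTORC1 list 4 of 33 genes fell and none rose. These were Ddit4l (-0.75) and Ddit4 (-0.61), both known as inhibitors of mTORC1, the sestrin Sesn1 (-0.33), also an inhibitor, and Mlst8 (-0.43), a subunit of the complex. Their adjusted p were 2.2e-05 (Ddit4l), 1.6e-05 (Ddit4), 0.0325 (Sesn1) and 0.000665 (Mlst8) by limma.

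Between 2 h and 6 h of VIP, 2 of 56 ribosome biogenesis factors rose in CT16 VIP and 47 lay above 0, with a median of 0.11, where 1.79% of all probes passed, 50.6% lay above 0 and their median was 0.0016. How far centring on the array median moves this list, as it did the ribosomal protein genes (31 of 57 above 0), was not tested. The 2 were Mybbp1a, a nucleolar protein, by 0.44 (adjusted p = 0.0073), and Gar1, of the particles that modify rRNA, by 0.36 (adjusted p = 0.00613). Of 27 initiation factors 1 rose (Eif4a1, the helicase, by 0.45, adjusted p = 0.00886). Of 73 mitochondrial ribosomal protein genes 1 rose (Mrps6, by 0.48) and 53 lay above 0. Of 38 mTORC1 genes 1 rose, Ddit4l, by 1.66 (adjusted p = 9.6e-07). None of 21 other 5′TOP genes and 18 polymerase genes passed.

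The slices carried the markers of the labelled tissue, with 20 of 21 SCN neuron genes detected in the arrays of the 2 h comparison. Of these, 3 rose after 2 h of VIP (Rorb, Gad1 and Nefl), as did Pdgfra among 3 fibroblast genes. Nefl was detected on 3 CT12 VIP arrays and on no CT12 Veh array. All 8 ependymal genes had differences below 0 and 4 of them fell (Dynlrb2, Rsph1, Rarres2 and Tmem212, with differences between -0.47 and -0.26), where 4.19% of all probes passed and 46.3% lay above 0. No astrocyte, microglia or oligodendrocyte gene passed at 2 h, and no cell type marker passed in CT16 VIP against CT12 VIP (limma). In CT16 VIP against CT12 Veh 2.21% of all probes passed and 46.3% lay above 0. Rorb (1.35) and Nefm (1.47) of 20 SCN neuron genes rose there, but only 8 of the 20 lay above 0 (median -0.12). P2ry12 (-1.35) of 8 microglia genes and Tmem212 (-1.08) of 8 ependymal genes fell, with 2 and 1 genes of these lists above 0. P2ry12 and Tmem212 were each detected on only 1 CT16 VIP array, and Nefm on 2 CT12 Veh arrays. Their differences are thus measured in part against background. Against CT10, Nefl rose in CT12 VIP but was detected on no CT10 array, so no fold is given. Rorb (1.14) and Nefm (1.73, detected on 2 CT10 arrays) rose in CT16 VIP against CT10. Of 21 SCN neuron genes, 12 lay above 0 in CT12 VIP against CT10 (median 0.078) and 7 in CT16 VIP against CT10 (median -0.14). The part of these markers in the values of the ribosomal protein genes was not tested.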

How the data were processed

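Total RNA of SCN slices was amplified, labelled and hybridised to 1-colour Illumina MouseWG-6 v2 arrays. The authors deposited raw probe intensity values without background correction or normalisation, and detection p-values of each probe against the negative controls of its array. They also deposited values on a variance-stabilised scale close to log2, made with lumi (version not given in the sources used here): probes filtered on a detection p of 0.01, then quantile normalised, once over all 16 arrays and once for each of 2 pairs of groups.

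The pairwise values were tested for CT12 VIP against CT12 Veh and for CT16 VIP against CT12 VIP. The other 4 comparisons used neqc on the raw intensities (limma 3.58.1, R 4.3.3), with probes detected on at least 1 array of the comparison. Each used lmFit and eBayes per probe, two-sided, with Benjamini-Hochberg adjustment over all probes tested; the number of arrays, 4 per group, limits the precision. Probes were named through the platform annotation and RefSeq, 16733 of 19893 in all, and each gene was represented by its brightest probe. No array duplicated another. Values by array come from the table of each comparison, and array and group patterns from the values over all 16 arrays.

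The members and gene lists were chosen with earlier results of these data known. Genes named with values were the 4 members of lowest p in each pairwise comparison, the member of lowest p in each other comparison, and Rps6, Rpsa, Rplp0, Rplp1, Rplp2, Rpl22 and Rpl22l1, besides members whose probes differed in direction. For Rpl14 and Rpsa among these, no fold is given. Rps20, Rps2, Rps10, Rps24, Rpl4, Rpl34, Rpl39, Rpl27, Rpl3, Rps23, Rps15a, Rps13, Sesn1, Tmem212 and the markers of the other 4 comparisons were named after their values were seen. Leaving out Rps23rg1 was likewise decided later. Alternatives were other background corrections and normalisations, a stricter detection filter, 1 fit of all arrays, a replicate block, the mean of a gene's probes, detection as a covariate, leaving out arrays of few detected probes and leaving out each array. The code was tested on simulated data.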

Additional observations from a re-analysis of the deposited data

Results flagged for a closer look

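In 6 of 68 groups of 4 arrays, 1 array lay far from the other 3, with a gap to its nearest neighbour past the 95% critical value of Dixon's test on the values of all 16 arrays. Chance alone flags about 1 in 20 groups. In CT12 Veh, replicate 4 was high for Rps12 (10.6, next 10.36) and low for Rpl10a (8.7, next 8.92). CT12 Veh 1, which detected 8844 probes, was low for Rplp0 (7.56, next 7.74) and high for Rplp2 (9.77, next 9.47). Rpl22l1 was high on CT12 VIP 1 (8.87, next 8.55) and on CT10 4 (8.74, next 8.47). Without CT12 Veh 1 the difference of Rplp2 in CT12 VIP against CT12 Veh was 0.035, and without CT12 VIP 1 that of Rpl22l1 was -0.052, both opposite in sign to the values over all arrays and neither past the threshold.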

How the results depend on the processing

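Of 637 alternative values, 598 kept their direction and their side of the threshold. The count of ribosomal protein genes called was 0 in each comparison and between 0 and 0 when each array was left out in turn. In CT12 VIP against CT12 Veh it was 1 of 55 on the values normalised over all arrays, where 4.31% of all probes passed. It was 1 of 49 with probes detected on every array of a group, where 7.73% passed (Rpl27a both times). With the detected probe number in the model it was 2 of 55 (Rpl27a and Rps12), where 5.16% passed. In CT16 VIP against CT12 VIP it was 1 of 57 without the arrays under 10000 detected probes (Rpl27a), where 1.44% of all probes passed. In CT12 VIP against CT10 it was 2 of 55 on the values normalised over all arrays (Rps12 and Rps19), where 2.8% of all probes passed. It was 1 of 57 in a fit of all 16 arrays (Rps19), where 2.31% passed. The cause of these calls was not tested. At an unadjusted p under 0.05 the counts were 3 (CT12 VIP against CT12 Veh), 5 (CT16 VIP against CT12 VIP), 2 (CT12 Veh against CT10), 2 (CT16 VIP against CT12 Veh), 4 (CT12 VIP against CT10) and 2 (CT16 VIP against CT10).

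With the replicate block, 0 members were called in any comparison, and Rps12 (adjusted p = 0.0577) and Rpl27a (0.0627) stood closest in CT12 VIP against CT12 Veh. Arrays of the same number deviated together with correlations between -0.086 and 0.26 in that comparison. In CT16 VIP against CT12 VIP these correlations lay between -0.32 and -0.076. With so few arrays per group they cannot decide if the numbers pair the slices. Of all probes, 4.94% passed with the block in CT12 VIP against CT12 Veh, and 4.19% without it. In CT16 VIP against CT12 VIP it was 0.832% with the block and 1.79% without it. The median over members in CT16 VIP against CT10 was 0.023 with this block.

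Named genes changed sign in 17 of 423 values, none of them called. In CT12 VIP against CT12 Veh, leaving out each array gave -0.086 to 0.035 for Rplp2, -0.11 to 0.0045 for Rpl22 and -0.0599 to 0.087 for Rpl22l1, the last also -0.052 without CT12 VIP 1. In CT16 VIP against CT12 VIP it gave -0.033 to 0.14 for Rps6, which was -0.026 without CT16 VIP 4, -0.019 to 0.16 for Rplp0 and -0.074 to 0.25 for Rplp1. Without the arrays under 10000 detected probes the values were 0.017 (Rplp2) and -0.0024 (Rpl22l1) in the first comparison, and -0.17 (Rps6), -0.31 (Rplp1) and -0.048 (Rplp2) in the second. In the second, centring on the array median gave -0.0595 (Rps6) and -0.031 (Rplp1), and the detected probe number in the model gave -0.025 and -0.0098. The medians over members ranged between -0.05 and -0.016 in CT12 VIP against CT12 Veh and between 0.057 and 0.11 in CT16 VIP against CT12 VIP when each array was left out. A block by slide was not run, since no slide was named. Signal near background limits Rpl14, Rpsa, Rpl21 and Rps18, detected on at most 3 arrays.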
